A study of Mus musculus with 6 samples.

Results

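The genes described here are Spp1, Ibsp, Dmp1 and Mepe, which encode secreted phosphoproteins of the bone matrix from the small integrin-binding ligand, N-linked glycoprotein family, and Phex, an endopeptidase gene that acts on their products. They were picked by symbol from a fixed list, and all 5 were found among the 29587 gene rows of the study's table of transcript levels. The libraries came from apoptotic osteoblasts of old mice (3 libraries) and of young mice (3 libraries). The labels give no age in months, strain, sex or genetic change. Nor do they say whether replicates were separate mice or cultures, so p-values here speak only for the spread among these 6 libraries and part of it may be technical. In both groups, bone pieces were grown in culture, the adherent cells were taken through 3 passages, kept for 3 days in osteogenic medium and killed by 0.5 h of ultraviolet light, after which over 90% took up trypan blue. The cells are therefore cultured, newly induced osteoblasts measured after killing, not cells taken from bone.

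The matrix phosphoproteins are acidic, heavily phosphorylated proteins that bind calcium and hydroxyapatite and, through an Arg-Gly-Asp motif, integrins on cells. Osteopontin (Spp1) is made early and widely and restrains crystal growth, bone sialoprotein (Ibsp) promotes crystal nucleation and marks osteoblasts that mineralise, and Dmp1, Mepe and Phex are mainly genes of the osteocyte, the cell that an osteoblast becomes inside bone. Dmp1 and Phex act in the same pathway that restrains the phosphate hormone Fgf23, and Phex degrades the acidic peptides that are released from Mepe and osteopontin.

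The motif that gives the family its name can be read in the coding sequence. The following stretches of GENCODE M21 coding sequence (GRCm38, plus strand) are shown because they hold this motif in each of the 4 genes. They are matches of letters, not measured binding to integrins. Capitals mark the codons for Arg-Gly-Asp.
Spp1, exon 7 of 8, chr5:104439460-104439510: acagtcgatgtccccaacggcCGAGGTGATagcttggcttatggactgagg
Ibsp, exon 7 of 7, chr5:104310454-104310504: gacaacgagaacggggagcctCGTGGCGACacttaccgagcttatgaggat
Dmp1, exon 6 of 6, chr5:104212486-104212536: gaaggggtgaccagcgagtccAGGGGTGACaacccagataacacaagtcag
Mepe, exon 3 of 3, chr5:104337521-104337571: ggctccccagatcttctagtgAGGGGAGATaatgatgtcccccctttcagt
Each of the 4 genes held the motif once. It lay at codons 145 to 147 in Spp1, 293 to 295 in Ibsp, 350 to 352 in Dmp1 and 183 to 185 in Mepe. Phex, which encodes a membrane-bound metallopeptidase, held none. Among 21756 protein-coding genes, taking the longest complete coding sequence of each, 7.2% held an Arg-Gly-Asp motif in frame.

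The 4 phosphoprotein genes lay side by side on the plus strand of chromosome 5 (mm10), in the order Dmp1 (104202613 to 104214102), Ibsp (104299171 to 104311469), Mepe (104325329 to 104338611) and Spp1 (104435118 to 104441050). Phex lay on the minus strand of chromosome X (157162075 to 157415312). A pair of boxes that the choice of genes had not used stood near the start of each of the 4 clustered genes. In each, a CCAAT box on the opposite strand, which reads ATTGG here, was followed after exactly 21 bases by a TATA-like box. That box was TTTAAA in Spp1, Dmp1 and Mepe. Ibsp had TTTATA in the same place. The pair ended 15, 23 and 26 bases before the RefSeq start in Spp1, Ibsp and Dmp1. In Mepe it ran from 21 bases before the start to base 11 of the transcript, so the second box lies within the transcript. For Ibsp, the row that was counted starts 116 bases before the RefSeq start. The Ibsp pair therefore lies within the span of that row. The stretch is shown for each gene, from RefSeq promoter sequence (GRCm38.p6, plus strand), with both boxes in capitals.
Spp1, chr5:104435065-104435096: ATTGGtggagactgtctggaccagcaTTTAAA
Ibsp, chr5:104299233-104299264: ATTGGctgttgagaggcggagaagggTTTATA
Dmp1, chr5:104202560-104202591: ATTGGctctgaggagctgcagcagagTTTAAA
Mepe, chr5:104325308-104325339: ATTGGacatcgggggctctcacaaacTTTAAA
Searched on the gene's own strand in windows of 300 bases, this layout was found at 17 of 32851 RefSeq starts (0.0517%), which belonged to 13 genes, these 4 included. The spacing was noticed by reading the sequences and then counted. The search used the spacing and both forms of the second box as seen in these 4 genes. Their own matches were therefore fixed in advance, and the share among all starts is a description, not a test. Phex had a TTTAAA but no ATTGG at this distance.

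The 180 bases before the start of Spp1 and of Dmp1, the members whose old and young libraries did not overlap, are given in full. Capitals mark the CCAAT box (CCAAT), the TTTAAA and the binding motif of RUNX factors (TGTGGT), each searched on both strands, where ATTGG and ACCACA are the reverse forms. No 2 of these marked motifs overlap.
Spp1, chr5:104434931-104435110: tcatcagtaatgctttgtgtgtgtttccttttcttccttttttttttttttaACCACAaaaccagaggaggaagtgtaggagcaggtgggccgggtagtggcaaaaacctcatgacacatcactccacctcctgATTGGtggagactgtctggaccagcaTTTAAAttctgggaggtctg
Dmp1, chr5:104202437-104202616: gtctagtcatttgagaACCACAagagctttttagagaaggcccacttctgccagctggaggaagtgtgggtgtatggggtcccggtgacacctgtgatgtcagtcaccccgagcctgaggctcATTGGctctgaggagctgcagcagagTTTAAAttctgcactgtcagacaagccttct
Both held 1 RUNX motif in this window and Mepe held 2, while Ibsp and Phex held none, and 10.1% of all 32851 windows of this length held 1 or more. A CCAAT box was present in 27.5% and TTTAAA in 8.3% of all windows. The AP-1 motif TGANTCA (4.97% of windows) was in none of the 5. An interferon response motif (GAAA, any 2 bases, then GAAA again, in 2.01% of windows) was in Spp1 and in none of the other 4, on the opposite strand. These are matches of letters, not measured binding.

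Reads counted on gene rows numbered 64881180 to 84535939 per library, recovered from the deposited values. Young replicate 1 stood apart. Across tested genes its log2 levels correlated with young replicates 2 and 3 at 0.9492 and 0.9616, where young replicates 2 and 3 correlated at 0.9959 and old replicates at 0.9954 or more (Pearson's r across genes, which are not independent replicates). On the same measure, young replicate 1 correlated with the old replicates at 0.9591 to 0.9677. It also had the fewest reads, the fewest genes at 1 RPKM or more (11242) and the lowest mitochondrial share of reads (1.05%). Results on the members, their neighbours and the gene lists are therefore given with and without it. The label was checked against osteoblast markers: the type I collagen gene Col1a1 averaged 1528 ± 31.8 RPKM in old and 1550 ± 424 RPKM in young libraries, while the alkaline phosphatase gene Alpl averaged 0.487 ± 0.0684 and 0.614 ± 0.126 RPKM and the osteocalcin gene Bglap 0.742 ± 0.138 and 0.416 ± 0.0372 RPKM (old and young, SD, n = 3 each). Alpl and Bglap thus stayed under 1 RPKM in every library. A further osteocalcin gene, Bglap2, averaged 1.01 RPKM in old and 0.478 RPKM in young libraries. For both osteocalcin genes all old libraries lay above all young ones. Other osteoblast markers were higher, such as Pth1r at 9.83 and 11.9 RPKM and Omd at 6.30 and 8.60 RPKM (means of old and young).

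Spp1 was the most abundant of the 5 transcripts and rose in old osteoblasts, the only called member. Ibsp averaged less in old libraries and Dmp1 more, but neither passed the test with all 6 libraries. Mepe and Phex, genes of the osteocyte, stayed at or under 0.348 RPKM in every library. Levels are in RPKM (reads per kilobase of gene length and per 1000000 reads), so they can be set side by side between genes. The order Spp1, Ibsp, Dmp1, Phex, Mepe was the same in each of the 6 libraries, with no overlap between neighbours in that order. Spp1, Ibsp and Dmp1 reached 1 RPKM in all 6 libraries and entered the test, which was limma on log2(RPKM + 1) over 12015 genes with Benjamini-Hochberg adjustment and a call at an adjusted p under 0.05. Of the 3 members tested, 1 was called, where 1.57% of all tested genes were called (1.47% higher and 0.0999% lower in old). The groups did not overlap for 2 of the 3, which held for 20.8% of all tested genes.

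**Figure D1:**
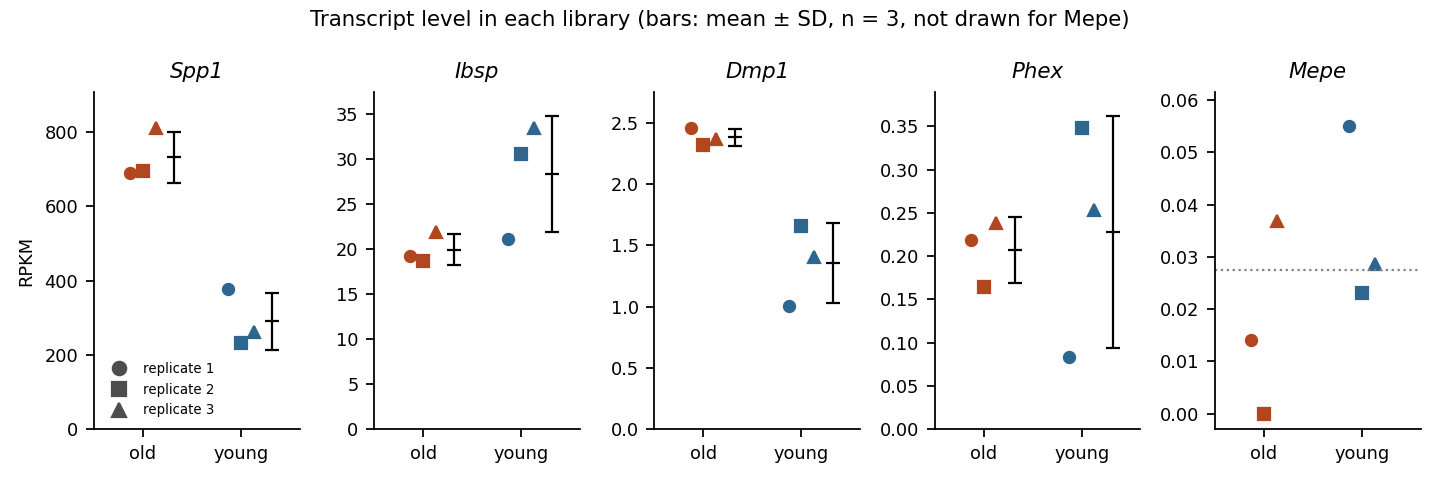
RPKM of each of the 5 genes in the 3 old and 3 young libraries, 1 point per library with its replicate number as the symbol, each panel on its own linear axis; bars are mean ± SD (n = 3), not drawn for Mepe, where the dotted line is the level of 3 reads in the shallowest library. All old libraries lie above all young ones in Spp1 and Dmp1, and young replicate 1 is the young library nearest to old in Spp1 and Ibsp but the farthest from it in Dmp1.

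Spp1 was at 690.7, 694.0 and 811.2 RPKM in old replicates 1, 2 and 3, against 376.4, 233.1 and 261.6 RPKM in young replicates 1, 2 and 3. All old libraries lay above all young ones, and young replicate 1 was the highest of the young. The log2 fold change was 1.36 ± 0.20 (SE, adjusted p = 0.0307 by limma), with a ratio of mean RPKM of 2.52. Spp1 ranked 82 to 102 among all genes in old libraries and 197 to 247 in young libraries. It took 0.114 to 0.134% of the reads in old libraries and 0.0384 to 0.062% in young libraries. Without young replicate 1 the log2 fold change was 1.56 ± 0.09 (SE, adjusted p = 0.000124 by limma), a fit in which 32.6% of all genes were called. Without any 1 of the other libraries the fold change stayed between 1.22 and 1.40 and the call was lost (adjusted p = 0.0819 to 0.201 by limma).

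Spp1 shares sequence with the predicted gene Gm42793 (chromosome 5, 104435121 to 104436372, same strand), which covers 309 bases, or 18.8%, of the Spp1 exons. How reads in shared bases were counted is not given in the sources used here. Gm42793 was at 56.2, 51.4 and 66.8 RPKM in old libraries and at 21.33, 20.95 and 20.68 RPKM in young libraries, a log2 fold change of 1.42 ± 0.12 (SE, adjusted p = 0.00239 by limma). Its reads numbered 5.63 to 6.26% of those of Spp1 in old and 4.31 to 6.83% in young. Added together, the pair made 1279 reads in each 1000000 in old and 504.8 in young libraries on average, a ratio of 2.53, close to that of Spp1 alone.

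Ibsp was at 19.3, 18.7 and 21.9 RPKM in old replicates 1, 2 and 3, against 21.1, 30.6 and 33.5 RPKM in young replicates 1, 2 and 3. The groups overlapped because young replicate 1 lay among the old libraries. The log2 fold change was -0.47 ± 0.18 (SE, adjusted p = 0.406 by limma), with a 95% interval of -0.91 to -0.03. Without young replicate 1 the groups were apart and Ibsp was called lower in old, with a log2 fold change of -0.66 ± 0.08 (SE, adjusted p = 0.00323 by limma), where 19.4% of all genes were called lower.

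Dmp1 was at 2.46, 2.32 and 2.37 RPKM in old replicates 1, 2 and 3, against 1.00, 1.65 and 1.40 RPKM in young replicates 1, 2 and 3. The old libraries lay above the young ones without overlap, and their spread was narrow, at 2.91% of the mean against 24.2% in young. The log2 fold change was 0.53 ± 0.12 (SE, adjusted p = 0.121 by limma), with a 95% interval of 0.25 to 0.82. Without young replicate 1 it was 0.42 ± 0.07 (SE, adjusted p = 0.0076 by limma) and Dmp1 was called higher, where 13.2% of all genes were called higher. Each value rested on 180 to 574 reads per library, against 29819 or more for Spp1. The fold change understates this low gene, and it was 0.83 when voom was run on recovered reads (not called). Dmp1 was called with all 6 libraries when they were scaled to 1 median or quantile-normalised (limma adjusted p = 0.026 and 0.024), settings that left its fold change at 0.51.

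Phex and Mepe did not reach 1 RPKM in any library and did not enter the test. Phex was at 0.218, 0.164 and 0.238 RPKM in old and at 0.0833, 0.348 and 0.253 RPKM in young libraries, on 34 to 170 reads each. The lowest and the highest value were both from young libraries, and the means of 0.207 ± 0.0382 and 0.228 ± 0.134 RPKM (old and young, SD, n = 3 each) did not differ by more than the spread (exact permutation test, two-sided, p = 0.8, where 3 libraries against 3 cannot go below 0.1). Mepe had 2, 0 and 5 reads in old and 6, 3 and 4 reads in young libraries, or up to 0.0368 RPKM in old and 0.055 RPKM in young. Only old replicate 3 and young replicates 1, 2 and 3 held 3 reads or more, so a difference in Mepe was not detectable at this depth (exact permutation test, two-sided, p = 0.3). A further gene of the family was not analysed here.

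**Figure D2:**
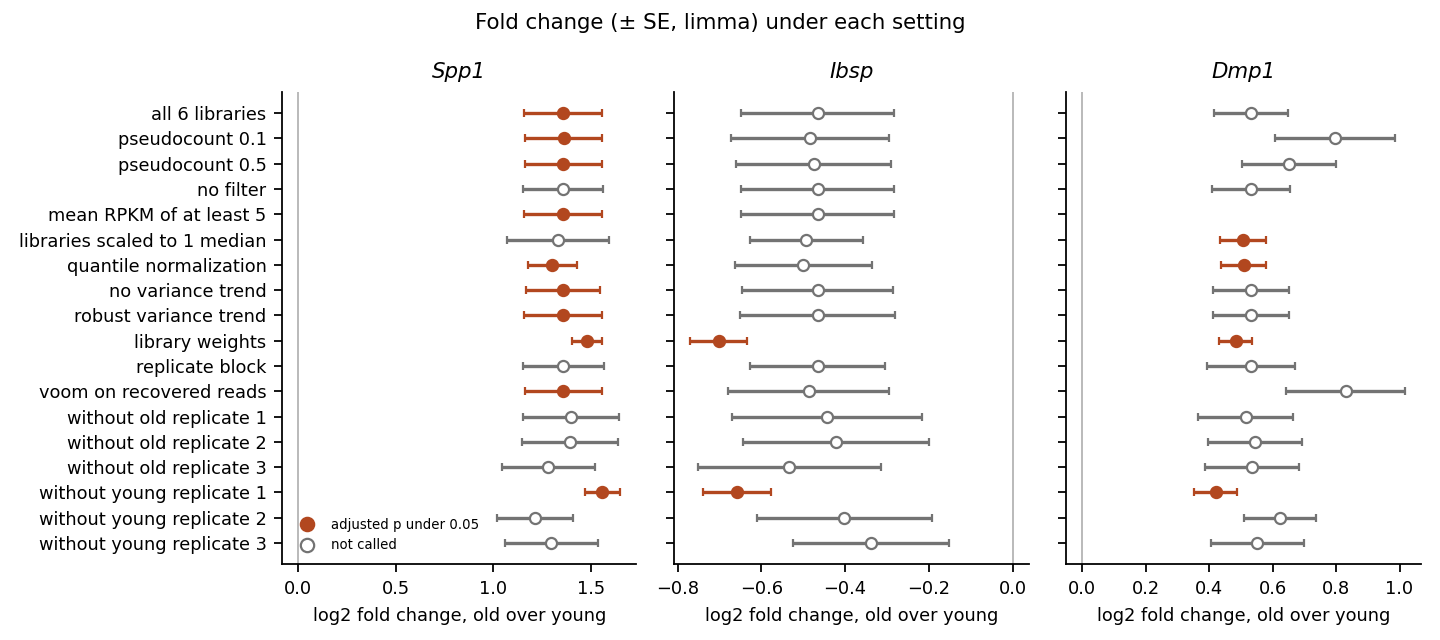
Log2 fold change of Spp1, Ibsp and Dmp1, old over young, with its SE under each way of fitting (rows), filled where the limma adjusted p was under 0.05; Dmp1 has no value at a mean RPKM of at least 5. Directions are the same in all rows, and the errors are smallest, for each gene, in the rows that leave out young replicate 1 or weight libraries by their quality.

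Spp1 made up more, and Ibsp less, of the phosphoprotein transcripts in every old library than in any young one. Of the summed RPKM of the 5 genes, Spp1 made 96.9 to 97.1% in old libraries and 87.7 to 94.4% in young libraries. Ibsp made 2.61 to 2.70% in old and 5.30 to 11.5% in young. As Spp1 makes most of the sum, a rise of Spp1 alone lowers the share of Ibsp, whose own level overlapped between groups. The Spp1 level was 35.9, 37.2 and 37.0 times that of Ibsp in old replicates 1, 2 and 3, against 17.8, 7.63 and 7.81 times in young replicates 1, 2 and 3. The ratio varied little among old libraries, and young replicate 1 lay between the old libraries and the other young ones. A ratio of RPKM within a library does not depend on the scaling between libraries. The log2 ratios that follow used RPKM + 0.1, so for the low gene Dmp1 this holds only nearly. In log2, the ratio of Spp1 to Ibsp was higher in old by 1.84 and that of Dmp1 to Ibsp by 1.28, and by 2.25 and 1.29 without young replicate 1. For both ratios all old libraries lay above all young ones, which gave the smallest p that 3 against 3 allows (exact permutation test, two-sided, p = 0.1, adjusted p = 0.129 over the 9 ratios computed). The ratio of Spp1 to Dmp1 overlapped between groups (log2 difference 0.56, exact permutation p = 0.4). With nothing added to RPKM, the log2 difference was 1.33 for Dmp1 to Ibsp and 0.517 for Spp1 to Dmp1. With 1 added, it was 0.997 and 0.826.

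**Figure D3:**
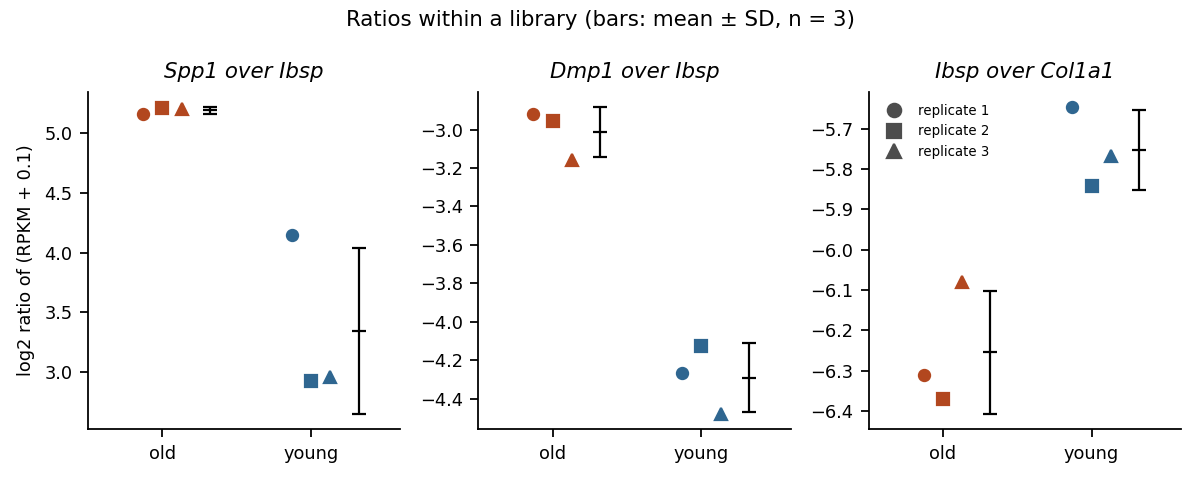
Log2 ratios within each library of Spp1 to Ibsp, Dmp1 to Ibsp and Ibsp to Col1a1, from RPKM + 0.1, with 1 point per library and mean ± SD (n = 3); axes differ and do not start at 0. Old libraries lie above young ones in the first 2 ratios and below them in the third, and young replicate 1 stands apart from the other young libraries in Spp1 to Ibsp only.

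Set against the collagen of the same library, Spp1 was at 0.449, 0.447 and 0.544 times Col1a1 in old and at 0.354, 0.133 and 0.143 times in young. Relative to Col1a1, the log2 difference between old and young was 1.34 for Spp1, 0.78 for Dmp1 and -0.50 for Ibsp, each with no overlap (exact permutation p = 0.1 each, adjusted p = 0.129 over the 9 ratios). Relative to Runx2, the transcription factor of the osteoblast lineage, it was 1.73 for Spp1 and 1.16 for Dmp1, again with no overlap. Ibsp relative to Runx2 overlapped between the groups, at 4.78 to 5.46 times in old and 5.05 to 6.09 times in young (log2 difference -0.12, exact permutation p = 0.5). Ibsp and Runx2 both averaged less in old.

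Within 500 kb of the 4 clustered genes, 19 rows of the table were found, these 4 included, and 13 entered the test. Spp1 and Gm42793 were the called genes among them, and the other 11 were not called by limma, with 2 of these 11 (Ibsp and Dmp1) at an unadjusted p under 0.05. Sparcl1, a matrix glycoprotein gene next to Dmp1, was at 25.1, 22.7 and 25.0 RPKM in old and at 22.5, 37.1 and 37.8 RPKM in young libraries, a pattern over libraries like that of Ibsp (log2 fold change -0.37, adjusted p = 0.653 by limma). Pkd2, the polycystin-2 gene just downstream of Spp1, stood at -0.11 ± 0.27 on the same log2 scale (SE, limma). The remaining 7, Aff1, Klhl8, Hsd17b11, Gm43545, Nudt9, BC005561 and D930016D06Rik, had log2 fold changes of -0.46 to 0.22. Near Phex, Sms and Mbtps2 were tested and not called, at -0.08 and -0.11, and neither was called without young replicate 1. Without that library, Nudt9 at 0.42 was called higher, and Sparcl1 at -0.61, Pkd2 at -0.40 and BC005561 at -0.71 lower, beside Spp1, Gm42793, Ibsp and Dmp1, so 8 of the 13 were called by limma, where 32.6% of all genes were called.

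**Figure D4:**
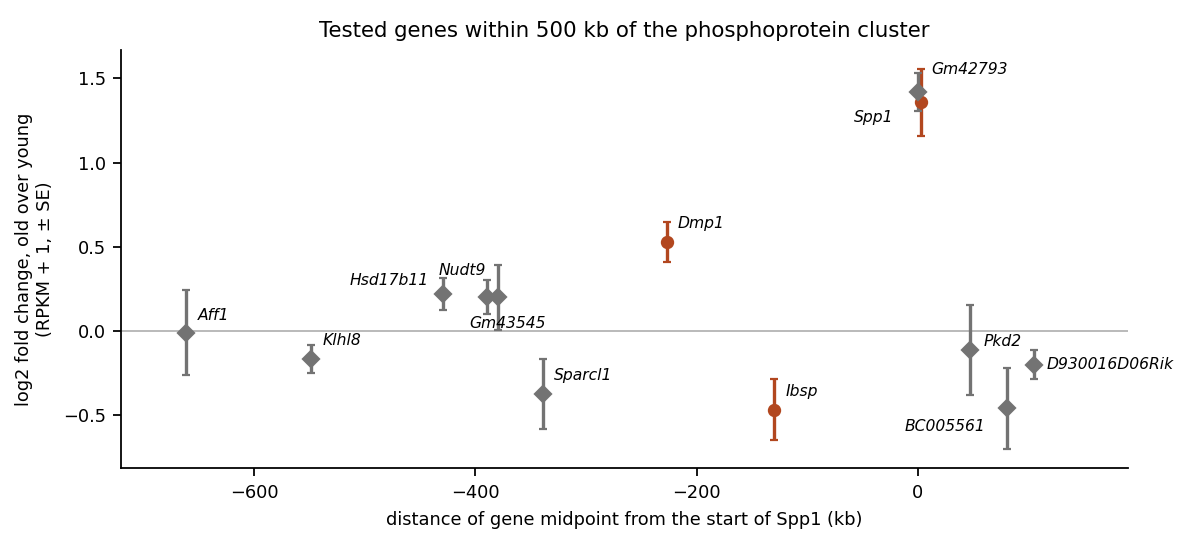
Log2 fold change, old over young (± SE, limma, RPKM + 1), of the 13 tested genes within 500 kb of the cluster, by distance of each gene's midpoint from the start of Spp1 in kb, with members as circles and other genes as diamonds. Spp1 and the overlapping Gm42793 stand at 1.36 and 1.42, and the other 11 lie between -0.47 (Ibsp) and 0.53 (Dmp1).

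None of the receptor genes of these proteins was called. Osteopontin and bone sialoprotein bind integrins with the alpha-v chain, and osteopontin also binds Cd44. Of 10 listed receptor genes 8 were tested, and 0 were called by limma on RPKM or by voom on recovered reads, with 1 at an unadjusted p under 0.05 and a median log2 fold change of -0.01, against 0.01 over all tested genes. That gene was Itgb5, a partner chain of alpha-v, at 38.7, 36.6 and 37.1 RPKM in old against 25.2, 31.8 and 31.2 RPKM in young (adjusted p = 0.315 by limma). Itgb5 was called higher without young replicate 1, at a log2 fold change of 0.24 (adjusted p = 0.0146 by limma), the 1 call among the 8, where 32.6% of all genes were called. Cd44 was at 21.2, 18.4 and 22.8 RPKM in old against 9.94, 20.6 and 16.3 RPKM in young (adjusted p = 0.666 by limma). The alpha-v gene Itgav averaged 5.89 ± 0.485 and 6.61 ± 0.642 RPKM and Itgb3 2.54 ± 0.310 and 2.85 ± 0.614 RPKM (old and young, SD, n = 3 each).

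Among enzymes that act on the phosphoproteins, Fam20c, the secretory kinase that phosphorylates them, had the lowest p. It was at 4.22, 4.39 and 4.17 RPKM in old against 1.84, 2.70 and 2.68 RPKM in young, with no overlap between groups. Its log2 fold change of 0.64 ± 0.13 was not called (SE, adjusted p = 0.0892 by limma), and it was called without young replicate 1 at 0.51 ± 0.06 (SE, adjusted p = 0.0022 by limma) and when libraries were scaled to 1 median (adjusted p = 0.0216 by limma). Tgm2, a transglutaminase that crosslinks osteopontin, was at 1.79, 1.89 and 2.00 RPKM in old against 1.08, 1.45 and 1.56 RPKM in young (adjusted p = 0.337 by limma). Of 9 tested genes of 16 listed, 0 were called by limma or by voom, with 2 (Fam20c and Tgm2) at an unadjusted p under 0.05 and a median log2 fold change of 0.06. The cathepsin gene Ctsk averaged 27.8 ± 0.991 and 31.8 ± 4.12 RPKM and the gelatinase gene Mmp2 146 ± 4.04 and 170 ± 36.6 RPKM (old and young, SD, n = 3 each). Of the 9, 2 were called higher and 2 lower without young replicate 1, where 32.6% of all genes were called.

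Nor was any gene of phosphate handling, the process that Phex and Dmp1 regulate. Of 14 listed, 6 were tested and 0 were called by limma or by voom, also with 0 at an unadjusted p under 0.05 and a median log2 fold change of 0.17. Fgf23, the phosphate hormone, was at 0 to 0.0292 RPKM in old and 0 to 0.00665 RPKM in young libraries. Its receptor gene Fgfr1 was at 12.6, 11.4 and 11.8 RPKM in old against 6.45, 11.5 and 10.2 RPKM in young. The old libraries overlapped the young ones, and the log2 fold change was 0.35, or 0.13 without young replicate 1. The Klotho gene Kl, in the same list, was at 0 to 0.002655 RPKM in old and at 0 in every young library. The pyrophosphate transporter gene Ank averaged 8.05 ± 0.832 and 6.62 ± 1.23 RPKM, the phosphate transporter gene Slc20a1 6.25 ± 0.143 and 5.24 ± 1.56 RPKM, and the phosphatase gene Phospho1 2.58 ± 0.352 and 3.02 ± 0.933 RPKM (old and young, SD, n = 3 each). Phospho1 was the 1 gene of the 6 called without young replicate 1, lower in old by a log2 fold change of -0.35 (adjusted p = 0.0276 by limma).

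Among transcription factors known to act on bone matrix genes, Sp7 fell in old. Of 11 tested of 16 listed, 0 rose and 1 fell by limma, with 4 at an unadjusted p under 0.05 and a median log2 fold change of -0.10, where 0.0999% of all genes were called lower and 1349 of 12015 had such a p. Without young replicate 1, 1 was called higher and 5 lower, Sp7, Runx2, Dlx5 and Fos among the 5, where 13.2% of all genes were called higher and 19.4% lower. The called gene was Sp7, osterix, which directs osteoblast differentiation, at 4.89, 4.88 and 4.94 RPKM in old against 8.40, 7.89 and 9.02 RPKM in young (log2 fold change -0.68 ± 0.09, SE, adjusted p = 0.0186 by limma). Leaving out young replicate 3, or an old library, ended that call (adjusted p = 0.122 to 0.163 by limma). Runx2 was at 4.03, 3.67 and 4.02 RPKM in old against 4.18, 5.66 and 5.50 RPKM in young (adjusted p = 0.423 by limma). The homeobox gene Dlx5 was at 18.6, 19.5 and 17.7 RPKM in old against 22.8, 23.2 and 24.7 RPKM in young (adjusted p = 0.189 by limma). The AP-1 gene Fos was at 19.1, 18.9 and 11.3 RPKM in old against 27.5, 54.3 and 51.3 RPKM in young (log2 fold change -1.36, adjusted p = 0.142 by limma). For Runx2, Dlx5 and Fos all old libraries lay below all young ones. Dlx5 and Fos were named after their values were seen. Spp1 and Sp7, both osteoblast genes, thus moved in opposite directions.

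**Figure D5:**
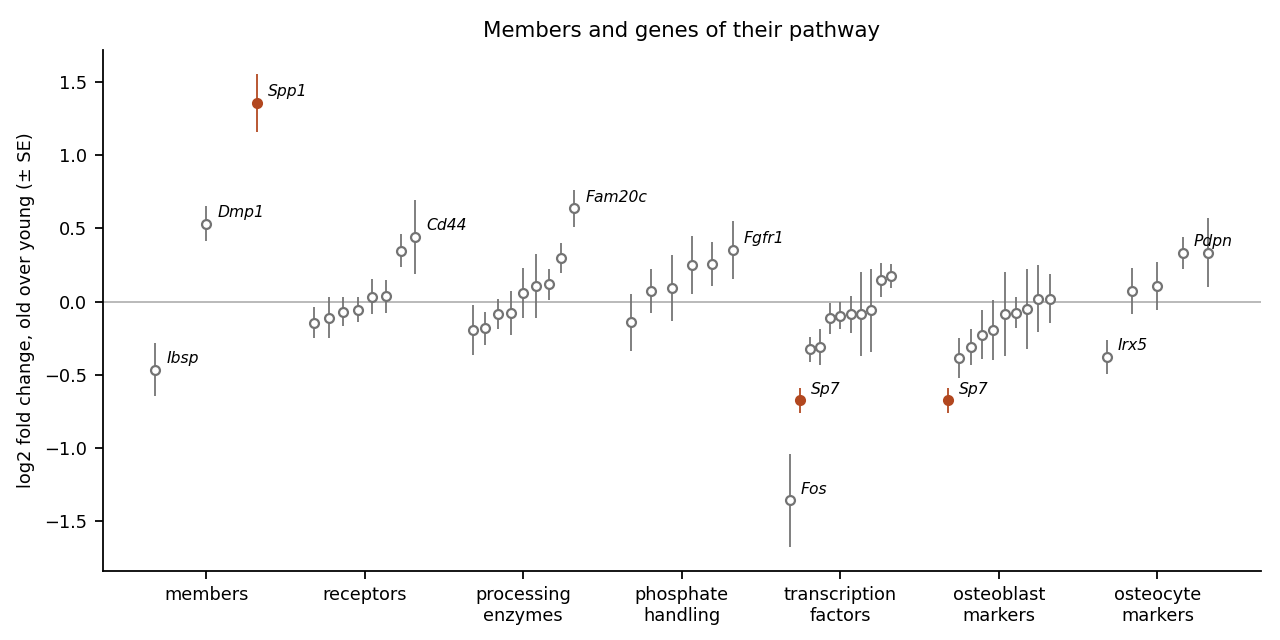
Log2 fold change, old over young (± SE, limma, RPKM + 1), of each tested gene among the members, their receptors, processing enzymes, phosphate handling genes, transcription factors, and osteoblast and osteocyte markers, ordered by value within a list and filled where the adjusted p was under 0.05. Spp1 and Sp7, which stands in 2 lists, are the filled points, at 1.36 and -0.68.

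Of 14 listed osteoblast markers outside the 5 genes, 10 were tested, 0 rose and 1 (Sp7) fell by limma, with a median log2 fold change of -0.14. Without young replicate 1, 8 of the 10 were called lower in old and 0 higher, where 19.4% of all genes were called lower. The osteocalcin genes Bglap and Bglap2, in the same list, did not pass the filter, and their old libraries all lay above the young ones. Fitted without the filter, their log2 fold changes were 0.297 and 0.446. Neither was called there (adjusted p = 0.281 and 0.142 by limma). Alpl and Bglap3, also untested, overlapped between groups. Of 10 osteocyte-enriched genes outside the 5, 5 were tested and 0 were called by limma or by voom, with 2 at an unadjusted p under 0.05 and a median log2 fold change of 0.10. These were the podoplanin gene Pdpn, at 33.7, 31.1 and 39.1 RPKM in old against 28.2, 25.5 and 27.9 RPKM in young, and Irx5, at 17.5, 17.8 and 16.2 RPKM in old against 19.8, 22.7 and 25.7 RPKM in young. The actin-capping gene Capg was at 20.2, 20.4 and 20.2 RPKM in old and at 23.9, 13.1 and 12.7 RPKM in young, and Cd109 averaged 4.43 ± 0.459 and 4.10 ± 0.988 RPKM (old and young, SD, n = 3 each). Pdpn and Capg were called higher and Irx5 lower without young replicate 1 (adjusted p = 0.0333, 0.000478 and 0.00608 by limma), and the log2 fold change of Capg was 0.61, against 0.33 with all libraries.

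Macrophages, osteoclasts and hypertrophic chondrocytes also make osteopontin, so their markers are given beside the rise of Spp1. In bulk RNA, fewer cells of a type and less RNA per cell cannot be told apart. The leukocyte gene Ptprc and the macrophage gene Adgre1 were at 0 in 4 and 5 of the 6 libraries and did not exceed 0.00763 RPKM. Other genes of that list were detected in every library, with overlap between groups. Cd68 was at 0.601 to 1.04 RPKM in old and 0.54 to 1.03 in young. Csf1r was at 0.360 to 0.521 and 0.383 to 0.618 RPKM, and Cd14 at 0.391 to 0.662 and 0.307 to 0.647 RPKM. Lyz2 was at 7.56 to 8.53 and 6.535 to 8.06 RPKM. The 12 macrophage genes in the table summed to 9.30 to 10.6 RPKM in old and 8.32 to 9.62 RPKM in young, most of it Lyz2, and 7 of them stayed at or under 0.1 RPKM in every library. Osteoclast genes summed to 31.1 to 33.5 RPKM in old and 33.3 to 41.3 RPKM in young, most of it Ctsk, while Acp5 and Calcr were at 0 in 5 of 6 libraries each. The hypertrophic cartilage gene Col10a1 stayed at or under 0.0158 RPKM. The cartilage genes Col2a1 and Sox9 were present at 38.6 ± 0.897 and 40.7 ± 17.0 RPKM and at 16.3 ± 0.942 and 17.3 ± 3.97 RPKM (old and young, SD, n = 3 each), with both called lower in old without young replicate 1. Their part in the rise of Spp1 was not tested. The 7 fat cell genes summed to 0.754 to 0.882 RPKM in old and 0.748 to 1.01 RPKM in young, and the 7 endothelial genes to 0.120 to 0.139 and 0.111 to 0.152 RPKM. Of the 6 tested genes in these 5 lists, 0 were called by limma or by voom, and 0 were at an unadjusted p under 0.05.

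Genes whose levels followed each member most closely over the 6 libraries were looked up as a description. The measure was Pearson's r of log2(RPKM + 1), and the values share libraries and groups, so high values arise readily among 12015 genes. For Spp1 they were the transporter gene Slc22a4, the interleukin 33 receptor gene Il1rl1, the metallothionein gene Mt2, the transcription factor gene Maff and the death receptor gene Fas, at r of 0.994 to 0.999. Il1rl1 was at 5.45, 5.56 and 6.70 RPKM in old against 2.74, 1.71 and 1.62 RPKM in young, with young replicate 1 again the highest of the young. For Ibsp they were Phf21b, Fam107b, the ceramide kinase gene Cerk, Pam and Ccpg1, at r of 0.985 to 0.991. For Dmp1 they were Baiap2, Thsd4, Atp10a, Cln3 and the interferon-inducible gene Samd9l, at r of 0.997 to 0.999. Between the members themselves r was -0.854 for Spp1 and Ibsp, 0.747 for Spp1 and Dmp1 and -0.462 for Ibsp and Dmp1, so the 3 tested genes of the cluster did not share 1 pattern over these libraries.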

How the data were processed

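Messenger RNA of UV-killed osteoblasts was sequenced in 3 old and 3 young libraries. The submitters' processing notes name fastp, STAR, HTSeq, edgeR and build mm10, with no versions or parameters. The sources used here give neither annotation nor strand setting. The authors deposited RPKM with a gene length for each row. RPKM times length in kb summed to 1000000 in each library, and reads recovered from it were whole within 0.01 for 100.0% of values. The number of reads counted on gene rows is thus known per library, but not the number sequenced. Among genes with 1 to 5 reads, 77.5 to 79.3% had an even number, so reads are not independent molecules and the floor of 3 reads covers counting error only.

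Genes at 1 RPKM or more in at least 3 libraries entered limma 3.58.1 (R 4.3.3) on log2(RPKM + 1), fitting old and young means with eBayes(trend). Fold changes are old over young on that scale, which understates changes of low genes. Called means a Benjamini-Hochberg adjusted p under 0.05. Exact permutation tests used scipy 1.17.1. Ratios within a library used RPKM + 0.1. Alternatives changed the pseudocount, filter, scaling, variance model, library weights, threshold and unit, added the replicate number as a block, or left out 1 library. The named genes were the members, called list genes or up to 4 of lowest p per list, tested neighbours within 500 kb and the 5 most similar genes without a predicted or clone symbol. Further list genes, such as Alpl, Bglap, Pth1r and Omd, were named outside this rule to describe the cells. The members and lists were chosen with earlier results of these data known. Sequences are from RefSeq (GRCm38.p6) and GENCODE M21, the same assembly as mm10.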

Additional observations from a re-analysis of the deposited data

How the results depend on the processing

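Spp1 was higher, Ibsp lower and Dmp1 higher in old under each alternative run. The call of Spp1 was lost without the filter (log2 fold change 1.36, limma adjusted p = 0.0785, with more genes tested) and with libraries scaled to 1 median (1.33, adjusted p = 0.0908 by limma), and leaving out 1 library gave 1.22 to 1.56. Ibsp was called with library weights at -0.70 (adjusted p = 0.000226 by limma), and leaving out 1 library gave -0.66 to -0.34. Dmp1 was called at 0.51 with 1 median, at 0.51 with quantile normalization and at 0.48 with library weights, and leaving out 1 library gave 0.42 to 0.62. The cause was not tested. Dmp1 has no value at a mean RPKM of at least 5. Phex differed by -0.02 in log2(RPKM + 1) and turned to 0.01 without old replicate 2 and 0.0504 without young replicate 2, giving -0.1074 to 0.0504 over the libraries left out.

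Of all genes, 177 were called higher and 12 lower in old. Leaving out 1 library gave 80 to 1589 higher and 0 to 2329 lower, the largest counts without young replicate 1. Library weights, which gave that library the lowest weight of 0.042, called 2119 higher and 2957 lower. A mean RPKM of at least 5 gave 99 higher, and an adjusted p under 0.1 gave 62 lower. Of 125 listed genes, members included, 2 were called, against 1 with no filter, 4 with quantile normalization, 34 with library weights and 0 to 25 with 1 library left out. The 9 ratios kept their direction under all 8 alternatives.

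The labels do not say whether replicate numbers pair the libraries. Deviations of same-numbered old and young libraries correlated at -0.026, -0.436 and 0.329. Those of differently numbered libraries correlated at -0.417 to 0.431, so these values cannot decide whether libraries were paired. With the replicate block, Spp1 kept a log2 fold change of 1.36 (adjusted p = 0.105 by limma), 82 genes were called higher, 0 lower and 0 of the listed genes, where 792 genes had an unadjusted p under 0.05.

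Mepe rests on 0 to 6 reads per library and no direction can be read from it. Leaving out any library but young replicate 1 ended the call of Spp1, and leaving out young replicate 1 added calls of Ibsp and Dmp1.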
